A study of Mus musculus with 12 samples.

Results

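The receptor tyrosine kinase gene Met, its ligand gene Hgf and the genes that govern ligand activation were followed across 12 mammary tumors of MADM-mutant mice. The group was chosen by gene symbol and holds 8 of the 47593 genes listed: Met, Hgf, the protease genes Hgfac, St14 and Hpn, the inhibitor genes Spint1 and Spint2, and the adaptor gene Gab1. In most of these tumors the receptor was among the most abundant transcripts while the ligand was near 2 TPM. Tumors 2, 8 and 9 departed from that picture: tumors 2 and 9 were low in Met, tumors 8 and 9 were high in Hgf, and tumors 2 and 8 were low in St14, Hpn, Spint1 and Spint2.

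MADM (mosaic analysis with double markers) makes sparse mutant cells by recombination between homologous chromosomes, and all tumors came from 1 condition. The mice carried the MADM cassettes on a mixed background, which the labels call RG;GR and the study TG and GT, with Brca1 and p53 mutant alleles and the MMTV-Cre transgene, which acts in mammary epithelium. Recombination leaves GFP+ cells without Brca1 and p53 among heterozygous cells. The labels give the treatment as None, the sources used here give no age for each tumor-bearing mouse, and no normal gland was among the samples. Tumors 3 and 4 came from a single mouse, tumors 10, 11 and 12 from another, and the other 7 mice gave 1 tumor each, which makes 9 mice.

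HGF is secreted as an inactive single chain, mostly by mesenchymal cells. It activates Met on neighbouring epithelial cells only after a serine protease has cut it. HGF activator (Hgfac), which circulates in plasma after synthesis in the liver, and the membrane proteases matriptase (St14) and hepsin (Hpn) can make this cut. The Kunitz-type inhibitors HAI-1 (Spint1) and HAI-2 (Spint2) sit on epithelial membranes and block these proteases, and active Met recruits the docking protein Gab1, which passes the signal to the ERK and PI3K pathways. In the mammary gland the pathway is known for its part in branching of the ducts. Transcript levels measure neither the cut nor the activity of any of these proteins.

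Levels are given in TPM, a unit that divides reads by transcript length and scales every tumor to the same total, so levels of different genes can be compared within a tumor. The values of a tumor summed to 999770 to 999909, no number of reads can be recovered, and depth and counting error are therefore unknown. Errors are SDs over 9 mice after tumors of the same mouse were averaged. Tests used log2(TPM + 1), on which a difference understates the change of a low gene. The label of a mammary tumor was checked with 7 epithelial markers, which together reached 3457 to 8152 TPM in 9 tumors, with 3243 TPM in tumor 9. The same sum was 1.87 TPM in tumor 2, where Epcam was listed at 0, and 156 TPM in tumor 8. Tumor 2 carried 1852 TPM of 5 B lymphocyte markers, against 0.648 to 7.80 TPM in 10 tumors and 115 TPM in tumor 9, so the markers go against its label. Tumor 8 carried 3222 TPM of 7 fibroblast markers and 3206 TPM of 6 macrophage markers, the highest sums of all tumors. In bulk tissue, fewer cells of a type and less RNA per cell cannot be told apart. The targeted genes, read over whole transcripts of all cells, ran from 6.93 to 24.7 TPM for Brca1 and from 30.2 to 74.2 TPM for Trp53, which does not check the genotype of the tumor cells.

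Met encodes the HGF receptor (ENSMUSG00000009376, GRCm38 chr6:17463800-17573980, plus strand). Its level was 1611 ± 1033 TPM (SD, n = 9 mice), with a lowest value of 1.13 TPM in tumor 2, a median of 1959 TPM and a highest value of 3119 TPM in tumor 10. The second lowest tumor was tumor 9 with 78.3 TPM, and every other tumor had 1251 TPM or more. The 10 high tumors therefore lay within a span of 1251 to 3119 TPM, well apart from the other two. Within a tumor, Met ranked between 23rd and 73rd of all genes in these 10 tumors, 2226th in tumor 9 and 14291st in tumor 2. On the log2 scale its SD over mice, 3.47, was larger than that of 99.9% of the 16802 genes with a mean of at least 1 TPM. That spread came from tumors 2 and 9: over the 7 mice without them the SD was 0.43, larger than that of 54.0% of the same genes. Tumors 2 and 9 were also the lowest pair for 12.2% of those genes, so the pair itself is common. Leaving out each mouse in turn kept the mean between 1436 and 1813 TPM.

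**Figure D1:**
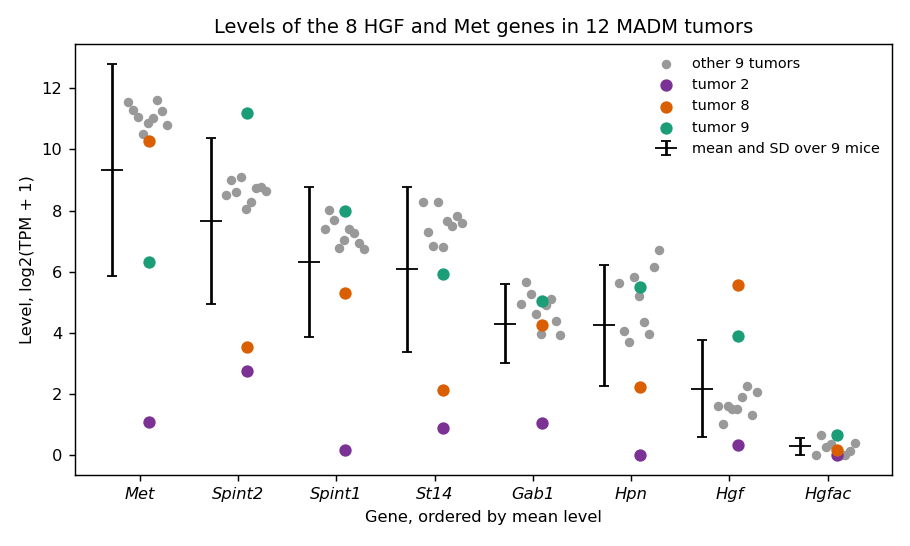
Levels of the 8 genes in each of the 12 tumors (vertical axis, log2(TPM + 1)), ordered along the horizontal axis by their mean over 9 mice. Grey points are the 9 tumors other than 2, 8 and 9, and the black bars give the mean and SD over mice. Tumor 2 lies lowest for 7 genes, tumor 8 joins it for St14, Hpn, Spint1 and Spint2, and tumor 9 is low for Met and highest for Spint2.

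The promoters of the receptor and ligand genes are printed because the abundant receptor and the scarce ligand are the core of the pathway. RefSeq promoters, 250 bases before to 50 bases after the start, were matched on GRCm38.p6 for 7 of the 8 genes, all but St14. Both strands were searched for 5 short motifs, and capitals mark the matches. The GC box, which Sp factors read, was taken as GGGCGG. The TATA box was searched as TATAAA. The E-box that repressors of epithelial genes read was taken as CACCTG. The AP-1 motif was searched as TGANTCA. For Grainyhead-like factors, which act in epithelia, the letters were AACNNGTT. No base was shared by different motifs. The Met sequence is chr6:17463707-17464006, plus strand, and its RefSeq start lies 157 bases inside the GENCODE gene. The Hgf sequence is chr5:16553245-16553544, plus strand.
Met promoter: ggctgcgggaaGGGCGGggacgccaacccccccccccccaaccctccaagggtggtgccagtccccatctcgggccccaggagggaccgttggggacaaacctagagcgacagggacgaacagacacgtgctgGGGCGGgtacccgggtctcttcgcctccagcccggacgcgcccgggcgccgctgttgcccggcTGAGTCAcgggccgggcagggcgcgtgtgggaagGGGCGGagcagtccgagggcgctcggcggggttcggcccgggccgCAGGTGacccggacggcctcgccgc
Hgf promoter: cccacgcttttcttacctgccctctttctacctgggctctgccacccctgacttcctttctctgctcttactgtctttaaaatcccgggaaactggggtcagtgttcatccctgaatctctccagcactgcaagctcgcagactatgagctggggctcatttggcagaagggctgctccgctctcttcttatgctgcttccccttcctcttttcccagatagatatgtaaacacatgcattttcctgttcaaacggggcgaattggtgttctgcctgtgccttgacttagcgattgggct
The Met sequence was 75.7% G and C with 34 CpG, a number reached by 7.73% of 32851 promoters, which had a median of 7. It held 3 GC boxes, 1 E-box and 1 AP-1 match, letters found in 35.7%, 20.2% and 7.81% of promoters, respectively. The Hgf sequence was 51.3% G and C with 7 CpG and held none of the 5 motifs. A second Hgf promoter, not printed, had 6 CpG and none of the motifs. The part of these sequences in the levels was not tested.

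Hgf encodes the ligand (ENSMUSG00000028864, chr5:16553495-16620152, plus strand). It was at 8.23 ± 15.1 TPM (SD, n = 9 mice), with a lowest value of 0.261 TPM in tumor 2, a median of 2.06 TPM and a highest value of 46.9 TPM in tumor 8. Tumor 9 followed with 14.1 TPM, and the remaining 9 tumors spanned 1.01 to 3.79 TPM and did not overlap with this pair. The mean was set by tumor 8, without which it was 3.40 TPM. These tumors were the highest pair for 3.64% of the 16802 genes. The low gene models Gm43489 and Gm42975 overlap Hgf on the same strand, with means of 0.265 and 0.00888 TPM.

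Tumor 8 was also highest for 3 of the 7 fibroblast markers, Pdgfra, Pdgfrb and Dcn, where 12% of the 16802 genes were highest, and tumor 4 for the other 4. The fibroblast sum of tumor 9 was 268 TPM, inside the 157 to 2883 TPM of the 9 other tumors. None of the 7 fibroblast markers was at 0 in tumors 8 or 9. Tumors 8 and 9 had the highest sums of 5 T lymphocyte markers, 65.4 and 81.7 TPM, against 3.26 to 19.9 TPM in the other 10 tumors. In tumor 8, Cd4 alone made up 41.6 TPM of the sum. There Cd3d, Cd3e, Cd3g and Cd8a were at 4.82, 3.40, 8.74 and 6.87 TPM, against 14.0, 15.0, 27.4 and 11.1 TPM in tumor 9. The part of either cell type in the Hgf values was not tested. Over 9 mice, Hgf and the median fibroblast marker gave Pearson's r = 0.661 (exact permutation of the pairings, p = 0.0518, adjusted p = 0.230 over 6 correlations) and Spearman's rho = 0.30 (exact permutation, p = 0.437, adjusted p = 0.856). The relation did not pass the threshold of 0.05, and without the mice of tumors 8 and 9, the farthest in Hgf, r was 0.345 over 7 mice. The mouse of tumors 3 and 4 had the second highest fibroblast median, 7.32 on the log2(TPM + 1) scale, with the second lowest Hgf, 1.31. With that mouse left out r was 0.872 over 8 mice, but the mouse was picked out by these same values, so no p is given. Leaving out the mouse of tumor 8 instead gave r = 0.318.

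**Figure D2:**
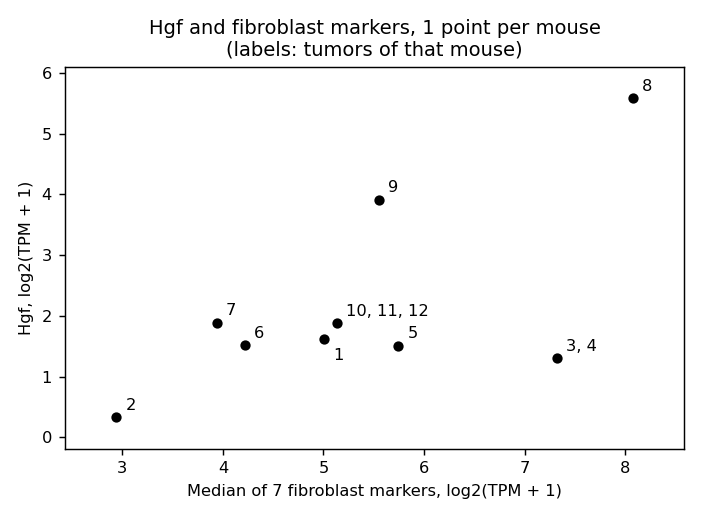
Hgf (vertical axis) against the median of 7 fibroblast markers (horizontal axis), both in log2(TPM + 1), with 1 point for each of the 9 mice and the tumors of that mouse as its label. The mouse of tumor 8 is highest on both axes, at 5.58 and 8.08, while the mouse of tumors 3 and 4 has much fibroblast signal, 7.32, and little Hgf, 1.31.

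Receptor and ligand were set against each other within each tumor. Met exceeded Hgf in 9 of 9 mice, by 7.16 ± 3.56 on the log2 scale (SD; two-sided exact permutation test by sign flips, p = 0.0039, the smallest that 9 mice can give, adjusted p = 0.00841). The ratio of Met to Hgf lay between 564 and 2465 in 9 tumors. It was 26.7 in tumor 8, 5.56 in tumor 9 and 4.32 in tumor 2. In tumor 8 the ligand was high beside a receptor level of 1251 TPM, while in tumor 9 the receptor was low and the ligand above the 9 other tumors. Once the mice of tumors 2 and 9 were set aside, as a separate low group for Met, the receptor and ligand transcripts of the remaining 7 mice had r = -0.643 (exact permutation, p = 0.134, adjusted p = 0.230) and rho = -0.179 (exact permutation, p = 0.713, adjusted p = 0.856). Without the mice of tumors 8 and 1 the value was 0.266 over 5 mice, and without tumor 8 alone it was 0.194, so the negative sign rested on tumor 8.

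Of the 3 protease genes that act on HGF, the plasma protease was nearly absent from the RNA and the membrane proteases were well represented. Hgfac (ENSMUSG00000029102, chr5:35041509-35048461, plus strand) was at 0.241 ± 0.246 TPM (SD, n = 9 mice) and listed at 0 in tumors 1, 2, 7 and 10, with a median of 0.172 TPM. Its highest value, 0.612 TPM in tumor 6, stayed under 1 TPM. Hepatocyte markers, checked because the liver is the known source of this protein, summed to at most 1.67 TPM in any tumor, with Alb and Ttr listed at 0 in all 12.

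St14, encoding matriptase (ENSMUSG00000031995, chr9:31089402-31131853, minus strand), was at 148 ± 117 TPM (SD, n = 9 mice). It ran from 0.849 TPM in tumor 2 through a median of 167 TPM to 312 TPM in tumor 5, with 307 TPM in tumor 1. Tumor 8 had 3.35 TPM and tumor 9 had 60.0 TPM, and the other 9 tumors had 112 TPM or more. The pseudogene Gm16071, on the opposite strand within St14, had a mean of 3.76 TPM, and it is not stated whether reads were assigned by strand. Hpn, encoding hepsin (ENSMUSG00000001249, chr7:31098725-31115290, minus strand), was at 31.7 ± 23.2 TPM (SD, n = 9 mice). It was listed at 0 in tumor 2, was 3.65 TPM in tumor 8, had a median of 27.8 TPM and peaked at 104 TPM in tumor 12. St14 exceeded Hpn by 1.83 ± 1.21 on the log2 scale in 8 of 9 mice (exact permutation test, p = 0.0078, adjusted p = 0.0122). The ratio of St14 to Hpn varied from 1.35 in tumor 9 to 12.1 in tumor 10 among the 10 tumors other than 2 and 8, with a median of 5.96. Tumor 8 was the exception in direction, with 3.65 TPM of Hpn over 3.35 TPM of St14.

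Spint1, encoding HAI-1 (ENSMUSG00000027315, chr2:119237362-119249527, plus strand), was at 136 ± 82.6 TPM (SD, n = 9 mice). Its lowest value was 0.116 TPM in tumor 2, its median 141 TPM and its highest value 261 TPM in tumor 3. Spint1 was at 38.7 TPM in tumor 8, at 255 TPM in tumor 9, and in the other 9 tumors at 106 TPM or more. Spint2, encoding HAI-2 (ENSMUSG00000074227, chr7:29256323-29281912, minus strand), was at 525 ± 708 TPM (SD, n = 9 mice). It ran from 5.81 TPM in tumor 2 and 10.6 TPM in tumor 8 through a median of 394 TPM to 2348 TPM in tumor 9. Tumor 9 was the highest tumor for 14.2% of the 16802 genes. Its Spint2 value was 4.27 times the next, 550.1 TPM in tumor 5, and the mean without tumor 9 was 297 TPM. In the sister tumors 10 to 12 Spint2 stayed at 401 to 434 TPM.

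The promoters of both inhibitors are shown because their transcripts were low in the same tumors, 2 and 8, and in tumor 9 Spint2 was highest and Spint1 second highest. The capitals have the same meaning as in the sequences above. The Spint1 sequence is chr2:119237110-119237409, plus strand, and the Spint2 sequence is chr7:29281928-29282227, minus strand, both on GRCm38.p6.
Spint1 promoter: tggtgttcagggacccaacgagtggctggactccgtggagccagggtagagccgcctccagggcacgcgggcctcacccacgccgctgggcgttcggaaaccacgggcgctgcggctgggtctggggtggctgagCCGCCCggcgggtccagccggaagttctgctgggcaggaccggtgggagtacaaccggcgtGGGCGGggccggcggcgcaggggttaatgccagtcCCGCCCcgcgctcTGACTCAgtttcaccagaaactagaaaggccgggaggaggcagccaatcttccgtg
Spint2 promoter: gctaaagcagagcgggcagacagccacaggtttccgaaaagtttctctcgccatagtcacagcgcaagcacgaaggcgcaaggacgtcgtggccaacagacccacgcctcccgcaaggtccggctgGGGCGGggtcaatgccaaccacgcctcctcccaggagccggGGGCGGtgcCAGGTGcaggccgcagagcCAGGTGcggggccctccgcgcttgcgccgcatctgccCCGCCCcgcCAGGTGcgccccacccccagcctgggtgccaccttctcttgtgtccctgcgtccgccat
Each held 3 GC boxes, with 28 CpG in Spint1 and 26 in Spint2. Spint1 held 1 AP-1 match and no E-box, while Spint2 held 3 E-boxes and no AP-1 match. The first Hpn promoter also held 3 GC boxes and 3 E-boxes, with 11 CpG. Those of Gab1 held 2 GC boxes each, with 26 and 28 CpG, and that of Hgfac held 2 E-boxes with 2 CpG.

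St14, Hpn, Spint1 and Spint2 shared their lowest tumors: 4 of the 8 genes had tumors 2 and 8 as the lowest pair, which held for 6.75% of the 16802 genes. Tumor 2 alone was lowest for 7 genes, where 28.9% of the 16802 genes had their lowest value, and Hgfac was at 0 there and in 3 other tumors. All 7 epithelial markers had the same lowest pair, with 1.87 TPM in tumor 2 and 156 TPM in tumor 8 in sum. Of the other 10 tumors, tumor 9 was lowest in the sums of epithelial markers, 3243 TPM, and of St14 and Hpn, 104 TPM. It was highest in the sum of Spint1 and Spint2, 2603 TPM. Low epithelial marker RNA went with low proteases and inhibitors in tumors 2 and 8, and its part in their values was not tested. Met did not follow this pattern, since tumor 8 kept 1251 TPM, and Gab1 had 18.2 TPM there, within the 14.3 to 49.5 TPM of the tumors other than 2.

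The balance of inhibitor to protease transcripts differed between tumors. Among the 10 tumors other than 2 and 8, the sum of Spint1 and Spint2 divided by that of St14 and Hpn had a median of 2.42. It ran from 1.49 in tumor 1 to 24.9 in tumor 9, with 4.50 and 4.70 in the sister tumors 3 and 4. Tumor 9 joined the highest inhibitor sum, 2603 TPM against 395 to 772 TPM, with the lowest protease sum, 104 TPM against 127 TPM in tumor 4, the next, and up to 368 TPM in tumor 5. Spint1 divided by St14 varied from 0.346 in tumor 5 to 4.25 in tumor 9 around a median of 0.844, so neither gene was steadily the higher. In tumor 8, where all 4 genes were low, the same ratio was 11.5, from 38.7 and 3.35 TPM.

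**Figure D3:**
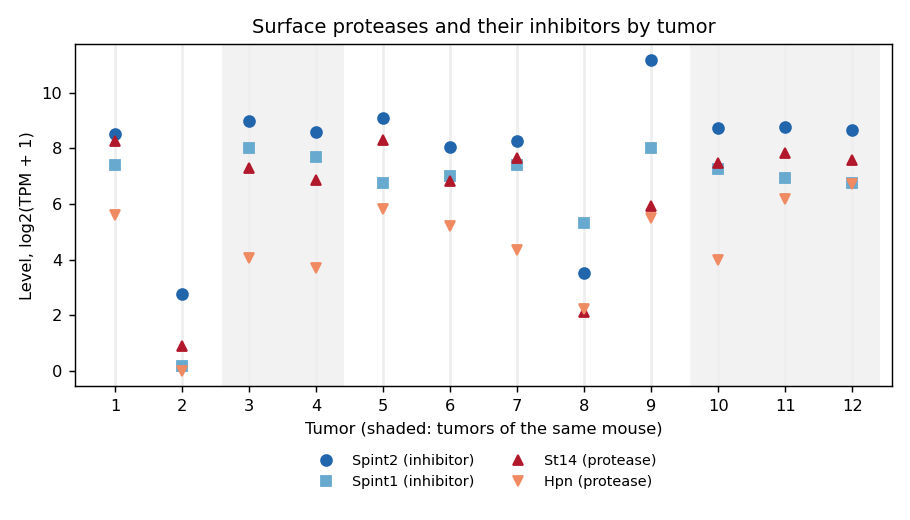
Levels of the inhibitors Spint1 and Spint2 (blue) and of the proteases St14 and Hpn (red) in log2(TPM + 1) on the vertical axis, by tumor on the horizontal axis, with tumors of the same mouse shaded. All 4 genes fall to their lowest values in tumors 2 and 8, and in tumor 9 Spint2, at 2348 TPM, stands far above St14, at 60.0 TPM, and Hpn, at 44.5 TPM.

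With the mice of tumors 2 and 8 set aside, the proteases and inhibitors of the other 7 mice showed no relation that passed the threshold. St14 with Spint1 had r = -0.638 (exact permutation, p = 0.128, adjusted p = 0.230) and rho = -0.607 (exact permutation, p = 0.167, adjusted p = 0.600), and r was -0.690 over 5 mice without those of tumors 9 and 6 but -0.326 without tumor 9 alone. St14 with Spint2 had r = -0.604 (exact permutation, p = 0.157, adjusted p = 0.230) but rho = -0.0714 (exact permutation, p = 0.906, adjusted p = 0.906). Its r was 0.150 without the mice of tumors 9 and 6 and 0.524 without tumor 9 alone. Spint1 with Spint2 had r = 0.555 (exact permutation, p = 0.192, adjusted p = 0.230) and rho = 0.214 (exact permutation, p = 0.662, adjusted p = 0.856), with r = 0.471 over 5 mice without those of tumors 5 and 9 and -0.125 without tumor 9 alone. Without tumor 9 the sign of both values for Spint2 turned and that of St14 with Spint1 did not. Over all 9 mice the 3 values of r were 0.829, 0.853 and 0.851, which the separate cluster of tumors 2 and 8 sets.

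Gab1, encoding the docking protein of active Met (ENSMUSG00000031714, chr8:80764438-80880519, minus strand), varied least on the log2 scale, with an SD of 1.30, among the 7 genes with a mean of at least 1 TPM. Over the 6 mice without tumors 2, 8 and 9 this order did not hold: the SD of Gab1 was 0.51, above those of Met at 0.35, Spint2 at 0.38, Spint1 at 0.40 and Hgf at 0.23. The level of Gab1 was 23.8 ± 12.1 TPM (SD, n = 9 mice), from 1.05 TPM in tumor 2 through a median of 26.3 TPM to 49.5 TPM in tumor 3. Tumor 9, which was low in Met, had 31.9 TPM of Gab1, above the median. The gene models Gm7997 and Gm31105, which overlap Gab1 on the opposite strand, were not analysed here. The ratio of Met to Gab1 was accordingly 2.46 in tumor 9 and 1.07 in tumor 2, against 50.3 to 126 in the other 10 tumors. In the same 7 mice as for Met and Hgf, Met and Gab1 had r = 0.521 (exact permutation, p = 0.230, adjusted p = 0.230) and rho = 0.571 (exact permutation, p = 0.200, adjusted p = 0.600). Without the mice of tumors 8 and 1, r was 0.374 over 5 mice.

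By mean log2 level the order was Met, Spint2, Spint1, St14, Gab1, Hpn, Hgf and Hgfac. Over the 6 mice without tumors 2, 8 and 9, St14 stood above Spint1 and Hpn above Gab1, and the rest of the order was the same. Of the 28 possible pairs, 25 differed at an adjusted p under 0.05 (exact sign-flip permutation tests over 9 mice, Benjamini-Hochberg over 28 pairs). The pairs that did not pass were neighbours in that order. Met and Spint2 differed by 1.67 ± 3.27 with Met higher in 7 of 9 mice (exact permutation test, p = 0.156, adjusted p = 0.168). The exceptions were the mice of tumors 2 and 9. Over the 6 mice without tumors 2, 8 and 9 the difference was 2.48 ± 0.57 (SD). That choice, made after the data were seen, leaves out the exceptions. The shared direction of these 6 mice was therefore fixed, and no p is given. Spint1 and St14 differed by 0.25 ± 1.53 with Spint1 higher in 4 of 9 mice (exact permutation test, p = 0.648, adjusted p = 0.672). Gab1 and Hpn differed by 0.05 ± 1.28 with Gab1 higher in 4 of 9 mice (exact permutation test, p = 0.891, adjusted p = 0.891). A receptor gene above its adaptor was seen in every mouse, Met over Gab1 by 5.03 ± 2.53 (exact permutation test, p = 0.0039, adjusted p = 0.00841).

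Between inhibitors, Spint2 exceeded Spint1 by 1.34 ± 1.44 in 8 of 9 mice (exact permutation test, p = 0.0273, adjusted p = 0.0333), with tumor 8 the exception. Spint2 also exceeded St14 by 1.59 ± 1.47 in 9 of 9 mice (exact permutation test, p = 0.0039, adjusted p = 0.00841). St14 exceeded Gab1 by 1.77 ± 1.93 in 7 of 9 mice (exact permutation test, p = 0.0312, adjusted p = 0.0365). Hpn exceeded Hgf by 2.08 ± 2.50 in 7 of 9 mice (exact permutation test, p = 0.0430, adjusted p = 0.0481), with tumors 2 and 8 the exceptions. The lowest neighbours, Hgf and Hgfac, differed by 1.89 ± 1.56 in 9 of 9 mice (exact permutation test, p = 0.0039, adjusted p = 0.00841). Over the 6 mice without tumors 2, 8 and 9 these differences were 3.46 ± 0.77 for Hpn over Hgf and 2.89 ± 0.72 for St14 over Gab1. They were 0.96 ± 0.52 for Spint2 over St14, 1.34 ± 0.58 for Spint2 over Spint1 and 9.44 ± 0.38 for Met over Hgf (SD). For Hpn over Hgf, St14 over Gab1 and Spint2 over Spint1 that choice leaves out every exception. Their shared direction was therefore fixed, and no p is given. The calls for Spint2 over Spint1, St14 over Gab1 and Hpn over Hgf were all lost when 1 mouse was left out, whichever of the 7 mice without tumor 2 or 8 it was. With 8 mice the smallest p an exact permutation test can give rises to 0.0078.

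Sister tumors of the same mouse could be compared in both mice that gave several. Tumors 3 and 4 differed by 1.17-fold in Met, by 1.25-fold to 1.36-fold in St14, Hpn, Spint1, Spint2 and Gab1, and by 2.02-fold in Hgf, from 1.01 to 2.04 TPM. As wide a log2 difference between these tumors was found in 39.7% of 12787 genes with a mean of at least 5 TPM for Met and in 12.9% to 23.2% for the 5 genes from St14 to Gab1. For Hgf the share was 7.45%, although its values in these tumors were below the level of the genes it was set against. Among tumors 10 to 12, Spint2 spanned 1.08-fold, St14 1.27-fold, Spint1 1.43-fold and Met 1.74-fold, from 1788 to 3119 TPM. Hgf spanned 2.54-fold, from 1.49 to 3.79 TPM. Hpn spanned the most, at 14.7, 70.9 and 104 TPM, or 7.09-fold. Only 1.00% of the 12787 genes had as wide a log2 span in these 3 tumors. Gab1 spanned 2.36-fold there, as wide a span as 9.44% of these genes had. With 1 RNA sample per tumor these spans have no error of their own.

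The genes whose log2 levels ran most like those of 4 members were sought over the 8 mice other than that of tumor 2, among genes with a mean of at least 5 TPM. Pearson's r is given as a description, since all points share the low or high value of tumor 8 or 9. For Met the closest were Rrp1b (r = 0.986), Cdc42ep1 (0.983), B3galnt2 (0.982), Lgals3 (0.980) and Tm4sf1 (0.979), all at their lowest in tumor 9 among these mice. For Hgf they were Lacc1 (0.988), Extl2 (0.982), the T lymphocyte marker Cd4 (0.975), the cytotoxic granule protease gene Gzmb (0.974) and B3gnt5 (0.969). Of these, Cd4, Gzmb and B3gnt5 reached the mean of 5 TPM only through 1 tumor: without tumor 8 the means of Cd4 and Gzmb were 4.25 and 2.22 TPM, and without tumor 2, which the likeness leaves out, that of B3gnt5 was 0.628 TPM. All 3 were highest in tumor 8 among the mice used, as Hgf was. Gzmb was at 51.2 TPM in tumor 8 and 9.10 TPM in tumor 9 with at most 3.91 TPM in the other 9 tumors, and Cd4 was at 41.6 and 14.2 TPM with at most 4.12 TPM.

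For St14 genes among the closest were Dctn3 (r = 0.987), the epithelial cadherin gene Cdh1 (0.985), Ptprf (0.985) and Fam84b (0.985). For Spint1 they were Unc13d (0.998), the membrane protease gene Tmprss4 (0.975), Celsr1 (0.947), Fam102a (0.941) and Hid1 (0.940). With tumor 2 included, r over 9 mice was 0.956 to 0.990 for the genes named for St14 and 0.530 to 0.980 for those named for Spint1. It fell to 0.234 for B3galnt2 with Met and to -0.0956 for B3gnt5 with Hgf, so these likenesses rested on leaving tumor 2 out.

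Other proteases and zymogens that can cut HGF or act near it were read from a list of 14 genes. Plau and Plat, the urokinase and tissue plasminogen activator genes, were the only members at 1 TPM or more in all 12 tumors, as 71.2% of the 16802 genes were. Plat had the highest mean, 90.1 ± 123 TPM (SD, n = 9 mice), from 1.59 TPM in tumor 2 through a median of 41.8 TPM to 371 TPM in tumor 8. Without tumor 8 its mean was 55.0 ± 66.7 TPM (SD, n = 8 mice). By median over the 12 tumors Prss22 was the highest of the list, at 59.9 TPM. Plg, encoding plasminogen, F12 and F11 were listed at 0 in every tumor. F2, encoding prothrombin, was listed at 16.3 TPM in tumor 9 and at 0 in the other 11. The protease genes Prss8, Prss22 and Tmprss2 did not exceed 0.539 TPM in tumors 2 and 8, although their means were 35.8, 77.7 and 15.7 TPM. Those tumors were also the lowest pair for St14 and Hpn, and for 6.75% of the 16802 genes. Tmprss6, of the same list, was at 1.18 TPM in tumor 8, above its median of 0.870 TPM.

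From the list of other inhibitor genes, Serpina1a, encoding an alpha-1 antitrypsin, was at 26.9 TPM in tumor 9 and at most 0.511 TPM elsewhere. Serpina5, an inhibitor of HGF activator, was listed at 0 in all tumors. Mst1r, encoding the Met paralog Ron, was at 0.512 ± 0.330 TPM (SD, n = 9 mice) with at most 1.03 TPM, and its ligand gene Mst1 did not exceed 0.230 TPM.

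Adaptors and signal carriers were read from a list of 12, of which 11 were at 1 TPM or more in all tumors, as 71.2% of the 16802 genes were, with Src as the exception at 0.773 TPM in tumor 2. Stat3 was highest at 255 ± 119 TPM and the exchange factor gene Sos1 lowest at 9.37 ± 2.90 TPM (SD, n = 9 mice). Against the same share, 8 of 9 negative regulators of Met were at 1 TPM or more in all tumors, from Errfi1 at 136 ± 95.5 TPM to the ubiquitin ligase gene Cblb at 12.1 ± 5.59 TPM (SD, n = 9 mice). All 6 co-receptor genes reached 1 TPM in every tumor. Cd44, whose protein can present HGF to Met, was highest at 248 ± 138 TPM (SD, n = 9 mice) with 1.69 TPM in tumor 2 and 28.2 TPM in tumor 9, which were also the lowest pair for Met and for 12.2% of the 16802 genes. Sdc1 had the same lowest pair, with 5.19 TPM in tumor 9 and 17.2 TPM in tumor 2, while Itgb4 and Plxnb1 had their highest values, 305 and 152 TPM, in tumor 9. Nrp1 was lowest at 15.3 ± 13.8 TPM (SD, n = 9 mice), with 51.6 TPM in tumor 8 and a mean of 10.8 ± 2.64 TPM without it (SD, n = 8 mice).

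Genes that ERK signalling induces were read from a list of 11, of which 9 had their lowest value in tumor 9, where 20.6% of the 16802 genes were lowest. Many receptors feed this pathway, so the list is not specific to Met, and its relation to the low Met of tumor 9 was not tested. The phosphatase gene Dusp6 was at 35.2 TPM in tumor 9 with a next lowest value of 88.1 TPM, and 123 ± 48.0 TPM on average (SD, n = 9 mice). The feedback inhibitor genes Spry1, Spry2 and Spry4 were at 3.19, 4.16 and 0.834 TPM with next lowest values of 6.52, 12.5 and 4.01 TPM. Spred1 and Spred2, of the same class, were at 10.8 and 10.9 TPM with next lowest values of 29.8 and 18.5 TPM. Of the transcription factor genes, Etv4 was at 1.16 TPM (next 12.1 TPM), Etv5 at 20.5 TPM (next 29.4 TPM) and Fosl1 at 0.252 TPM (next 1.62 TPM).

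The exceptions in the list were Dusp4, highest in tumor 9 at 201 TPM with 118 TPM next, and Phlda1, at 214 TPM there and 282 TPM in tumor 12. In tumor 2, which was lower in Met than tumor 9, only Dusp4 and Phlda1 had their lowest values, 2 of 11 genes beside 28.9% of the 16802 genes. The median of the list over genes was 10.8 TPM in tumor 9, the lowest, 17.3 TPM in tumor 2, the next, and 52.5 TPM in tumor 1, the highest. The count of 9 was the same after either rescaling of the tumors. Spry4 had the lowest mean, 6.75 ± 3.51 TPM (SD, n = 9 mice).

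**Figure D4:**
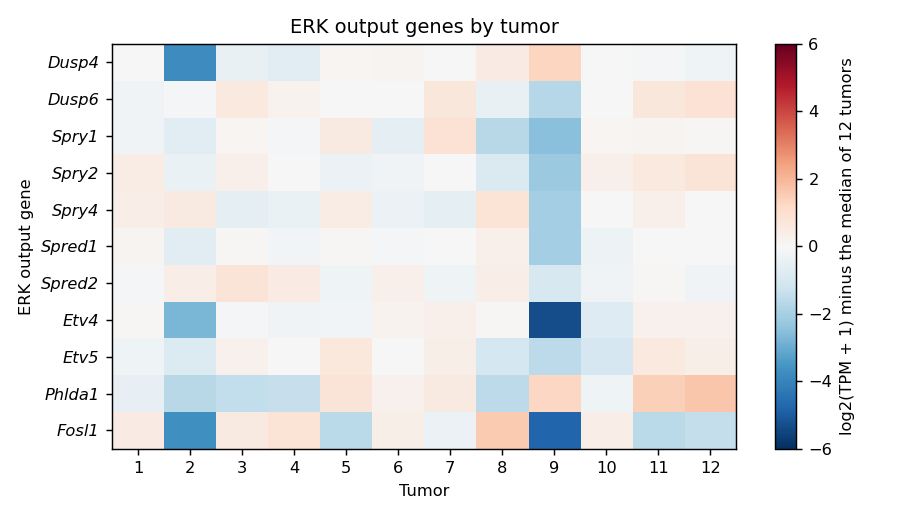
Levels of the 11 ERK output genes (rows of the map) in the 12 tumors (columns), each as log2(TPM + 1) minus the median of that gene over the tumors, with blue below and red above that median. Tumor 9 holds the lowest value of 9 genes, with Dusp4 and Phlda1 red there, while tumor 2 is also below the median for 9 genes but lowest for Dusp4 and Phlda1 only.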

How the data were processed

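Libraries of polyA RNA from about 50 mg of each homogenized tumor were made by the authors with a stranded mRNA kit and sequenced as paired ends of 75 bases. The authors trimmed adapters with fastq-mcf, aligned reads to the GRCm38 transcriptome with HISAT and used StringTie 2.1.6 to obtain the deposited TPM values, 1 column per tumor with no pooling. The sources used here do not say how the values of transcripts became those of genes, nor whether reads were assigned by strand. A very abundant gene lowers the TPM of all others in that tumor, and no depth is left in the values.

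Tumors were grouped by the labels, and those of the same mouse were averaged, as TPM for the mean levels given and as log2(TPM + 1) for tests. Since all tumors were of 1 condition, members were compared with each other within mice by two-sided exact sign-flip permutation tests, and relations by exact permutation of the pairings (100000 resamples with 12 tumors as units). The 28 pairs and the 6 correlations were each adjusted by the Benjamini-Hochberg method. The members, gene lists, tests and left-out tumors were chosen with earlier results of these data known. All members, the 5 genes most like each of 4 members, the highest and lowest gene of each list and genes 10 or more times the next tumor were named, except some that are not reported here. Itgb4, Plxnb1, Sdc1, Prss8, Prss22, Tmprss2, Tmprss6, Plau, Src, F12, F11 and the ERK output genes other than Dusp6 and Spry4 were chosen after their values were seen. Background shares cover 16802 genes with a mean of at least 1 TPM over mice.

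The alternatives were a pseudocount of 0.1, each tumor as a unit, rescaling without mitochondrial genes, members with a mean of at least 1 TPM, medians, Spearman's rho and leaving out mice, and after seeing the data a median-of-ratios scaling and leaving out tumors 2, 8 and 9 together for pairs, and some of these tumors for spreads and for means of genes outside the group. Gene positions came from GENCODE vM21, which placed 47137 of 47593 genes on GRCm38. The tests were tried on simulated data. Scripts ran in Python 3.11.15 with scipy 1.17.1, pandas 2.3.3, numpy 2.4.6 and, for plots, matplotlib 3.10.9. Exome data were not analysed here.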

Additional observations from a re-analysis of the deposited data

Results flagged for a closer look

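Of 25 values examined over the 9 mice (the log2(TPM + 1) level of the members and the median of each gene list), 8 had an end mouse farther from its neighbour than Dixon's limit for 9 values allows. Chance picks out about 1 in 20 such groups. The values are not independent, since 6 of the 8 came from tumor 2. In that tumor Met was lowest at 1.09 (nearest mouse 6.31), Spint1 at 0.16 (nearest 5.31) and Gab1 at 1.04 (nearest 3.97). The co-receptor median was lowest there at 3.92 (nearest 5.79) and the macrophage median at 6.07 (nearest 7.43), while the B lymphocyte median was highest at 8.98 (nearest 4.27). The mouse of tumors 3 and 4 was highest in the skeletal muscle median at 4.92 (nearest 1.44) and in the hepatocyte median at 0.090, where every other mouse was at 0, so that any value above 0 would have been picked out. Gab1 in tumor 2 lay far below the other mice, although its transcript was found in every other tumor at 14.3 TPM or more.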

How the results depend on the processing

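The count of 25 differing pairs of 28 lay between 22 and 26 under every alternative that kept all 8 genes, and was 17 of 21 for the 7 genes with a mean of at least 1 TPM. The call of Hpn over Hgf was lost with a pseudocount of 0.1 and with the median-of-ratios scaling, and that of Spint2 over Spint1 without tumor 2. Hpn stood above Gab1 with tumors as units or without the mouse of tumor 2, 3 and 4, 7 or 8, and St14 above Spint1 without tumor 8. Mean levels moved by less than 1 SD in all 104 recomputations. For Hgf, Spint2 and Hgfac the SD exceeds the mean, so no fall could be as large as 1 SD. Hgf went from 8.23 TPM to 2.08 TPM as a median over mice and to 3.40 TPM without tumor 8. Spint2 went from 525 to 297 TPM without tumor 9. The median-of-ratios scaling raised tumor 9 by 0.22 and tumor 2 by 0.12 and lowered tumor 7 by 0.12 on the log2 scale. The low pair of Met, the high pair of Hgf, the highest tumor of Spint2 and the shared low pair were unchanged. Over all 9 mice the correlations became 0.829 for St14 with Spint1 (exact permutation, adjusted p = 0.0388), 0.853 for St14 with Spint2 (exact permutation, adjusted p = 0.0474), 0.851 for Spint1 with Spint2 (exact permutation, adjusted p = 0.0105), 0.813 for Met with Gab1 (exact permutation, adjusted p = 0.0816) and 0.171 for Met with Hgf (exact permutation, adjusted p = 0.712). The change came with the cluster of tumors 2 and 8 for the first 3 and with tumors 2 and 9 for the others. With each mouse left out in turn, r ranged from 0.318 to 0.872 for Hgf with the fibroblast markers, from -0.804 to -0.326 for St14 with Spint1, from -0.807 to 0.524 for St14 with Spint2, from -0.125 to 0.714 for Spint1 with Spint2, from 0.406 to 0.601 for Met with Gab1 and from -0.826 to 0.194 for Met with Hgf. Of the 10 genes most like Met, 0 were shared with the list by Spearman's rho and 0 with that over 9 mice, and for Spint1 2 and 1, for St14 1 and 6 and for Hgf 0 and 2 (and 5 with genes of at least 1 TPM), so these names depend on both choices. Depth is unknown, so no counting error can be given for low genes such as Hgf and Hgfac. No paired analysis was possible because there is no second group of samples to pair, and the tests within mice compare genes.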
